A study of Mus musculus with 3 samples.

Results

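MEF, or mouse embryonic fibroblasts, are cultured straight from embryo tissue and are the usual starting cells for reprogramming. The compound added to them, n-butylidenephthalide (BP), is a small phthalide from the root of Angelica sinensis. The genes described here are those bright enough to be measured well on every array of the study, and the question put to them was how the higher BP dose differed from the lower one. Of 35689 gene names on the array, 10875 (30.5%) had at least 1 probe that stood well above background on all 3 arrays and whose mean log2 signal over the 3 arrays, taken relative to the 75th percentile of the gene spots of each array, was above 0. They rested on 13102 of 55681 gene probes, and a further 14129 gene names were above background on all arrays but dimmer than this limit. Brightness chose the genes, but its mean includes the arrays of both doses, so the choice was not independent of the difference between them. Some genes passed the limit only through 1 array, with signals below 0 on the others. Among them are Gm2138, Vgf and an unnamed region of chromosome 16 through the higher dose, and Syn1 and Plekhf2 through the lower dose. Further genes, such as Gsta4, Mgarp and Rtp4, would have fallen below the limit without the higher dose, and Adamts5 without the lower dose. At the limit, the 3 dimmest bright genes were Aqp1, Gpaa1 and an unnamed region of chromosome 8, with differences between the doses of -1.04, 0.08 and 0.26, and the 3 genes just outside it, TC1735695, Gm10523 and Coro2b, had differences of -0.14, -0.30 and -0.10.

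The study prepared RNA from C57BL/6 MEF grown without BP (control), in 10 µg/ml of the compound (BP10) or in 40 µg/ml of it (BP40), and hybridized 1 Cy3-labeled sample of each to 1 array. The control carries no treatment in the labels, whereas the text of the study speaks of DMSO, and how long the cells were exposed before RNA was taken is not given in the sources used here. MEF were made from embryos without heads, legs and internal organs, so the cultures are mixed primary cells. Each difference below therefore sets 1 array against 1 other array: there was no replicate check, no test across cultures was possible and no p-value is given.

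Fibroblasts make and remodel the extracellular matrix, in which collagens, proteoglycans and their crosslinking enzymes form a network outside the cell. In low oxygen the factor HIF-1 switches on glucose transporters, glycolytic enzymes and mitophagy genes, interferons switch on antiviral genes through a complex that holds STAT2 and IRF9, and metals switch on metallothioneins through MTF1. These 3 programs each have a short DNA element in the promoters of their targets, which allows the sequence to be shown beside the signal.

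Of the 14 fibroblast markers examined, 13 were bright, among them Col1a1, Col1a2, Vim, Thy1 and Pdgfra. Their median BP40 minus BP10 was -0.10 against 0.16 for all bright genes, with 9 of 13 below 0, and several of them, such as Col1a1 and Dcn, also stand in the matrix lists below. Of the markers of other cell types, 10 of 21 for macrophages were bright, with a median of 0.16. For endothelium 4 of 16 were bright (median 0.25), and for epithelium 3 of 13 (-0.29). For neural and Schwann cells 3 of 18 were bright (median 0.41), with S100b at 1.37, Tubb3 at 0.41 and Nes at -0.05. For cartilage and bone 2 of 20 were bright, Sox9 at 0.61 and Col2a1 at -0.60, and for adipocytes 4 of 13 (median 0.18). For skeletal muscle 2 of 24 were bright (median 0.12), and for erythroid cells 0 of 11. The part of these cell types in the differences below was not tested. Spots well above background were 81.7% of gene spots for the control, 68.3% for BP10 and 69.1% for BP40, with no saturated spot. BP10 and BP40 were scanned in 1 session and the control array in another, and the scanner software's detrending had a fit of 0 on the control array but acted on the BP10 and BP40 arrays, so control values are shown beside the others but carry this difference. For bright probes printed many times on an array, the median SD between spots was 0.09 over 168 probes of the control array, 0.05 over 166 of the BP10 array and 0.06 over 166 of the BP40 array. It measures printing and hybridization within an array and says nothing of the spread between cultures.

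Most bright genes differed little between the doses. BP40 minus BP10, on the log2 scale after each array was set to its 75th percentile, had a median of 0.16 and an SD of 0.38 over the 10875 genes, and 9698 of them (89.2%) lay within 1.5-fold. At 2-fold or more, 130 genes (1.2%) were higher at BP40 and 54 genes (0.497%) were lower, and at 1.5-fold the counts were 864 (7.94%) and 313 (2.88%). Genes above background but not bright passed 2-fold more often, with 2.33% higher and 2.2% lower. The median difference was 0.08 for genes of brightness 0 to 1 and 0.32 for those above 7. This shift makes the split between directions depend on the scaling: 96 genes were higher and 76 lower after quantile normalization, 92 and 83 after centring on the median of the bright probes, and 93 and 77 after subtracting the running median along brightness. The 7 bright E1A probes, which read a spike-in RNA, differed singly by 0.42 to 0.92 with a median of 0.79, and their median level on an array differed by 0.92 between the doses. Scaling each array on that median level lowered every difference by 0.92, turned the median of the bright genes to -0.76 and gave 21 higher and 2568 lower. Medians and counts of gene groups below are on the 75th percentile scale and are to be read beside the median of 0.16 and the shares of all bright genes. A shift common to all genes leaves the distance of a group from that median in place, whereas the rise with brightness does not, and groups of bright genes moved when it was removed.

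**Figure D1:**
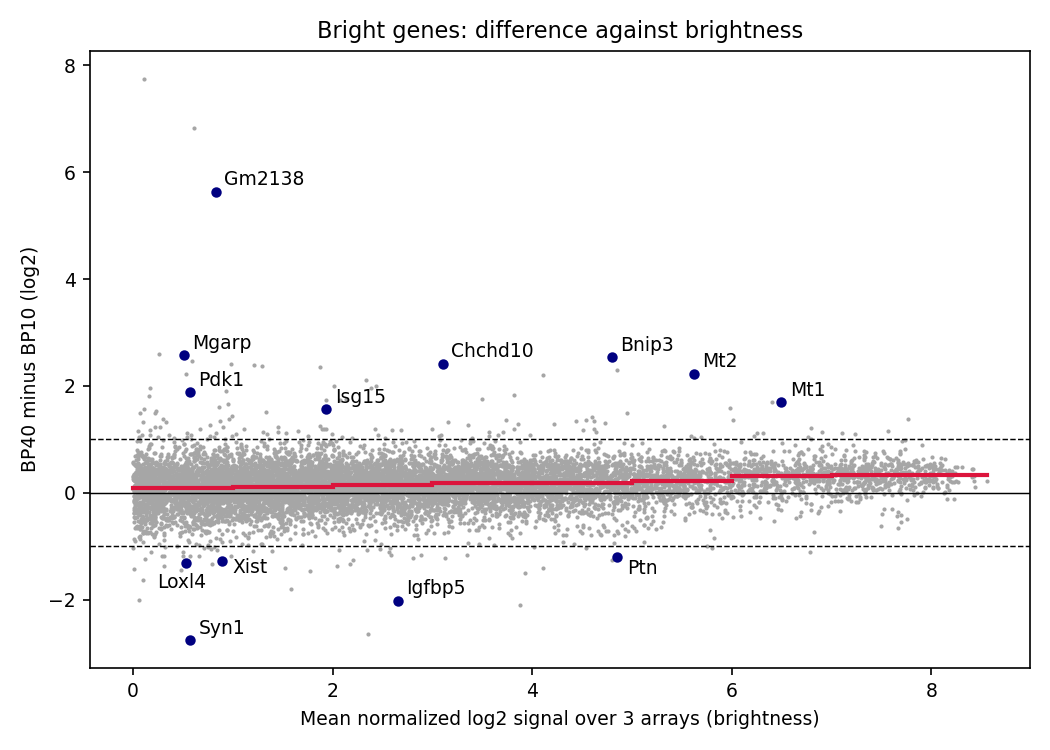
BP40 minus BP10 (log2, vertical axis) against normalized log2 signal averaged across the 3 arrays (horizontal axis) for 10875 bright genes, 1 grey point per gene represented by its brightest probe. Red bars give the median in steps of brightness, from 0.08 to 0.32, dashed lines mark 2-fold, and blue points are genes named in the text; under spike-in scaling all points would sit lower by 1 common amount.

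Several of the highest genes were read by probes for a repeat rather than by probes for a gene of known function. Of the 15 genes with the largest difference in favour of BP40, 5 carried only transcript identifiers. Their 60-base probes resemble the major satellite, the tandem repeat that flanks the centromeres of mouse chromosomes. The probe sequences are shown because they hold what these 5 entries share: capitals mark runs of 10 or more bases that also occur, on either strand, in another of the 5 probes, and the positions are those in the array annotation.
ENSMUST00000099035 (mm9, chr9:3038257-3038316, plus strand): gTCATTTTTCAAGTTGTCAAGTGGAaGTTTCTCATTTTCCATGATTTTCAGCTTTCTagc
ENSMUST00000099046 (mm9, chr9:3025159-3025218, plus strand): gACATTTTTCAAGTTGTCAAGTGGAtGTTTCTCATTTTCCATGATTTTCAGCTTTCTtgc
ENSMUST00000099037 (mm9, chr9:3034517-3034576, plus strand): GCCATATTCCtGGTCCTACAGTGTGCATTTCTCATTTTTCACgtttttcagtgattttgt
ENSMUST00000099683 (mm9, chr2:98507014-98507072, minus strand): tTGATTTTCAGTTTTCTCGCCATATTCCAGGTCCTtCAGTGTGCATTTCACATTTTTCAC
ENSMUST00000099050 (mm9, chr9:3021700-3021759, plus strand): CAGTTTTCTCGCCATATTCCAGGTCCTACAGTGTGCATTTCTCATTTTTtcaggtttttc
The probe of ENSMUST00000099035 shared 55 of its 60 bases with the others in this way, and that of ENSMUST00000099037 shared 41. ENSMUST00000099035 had a normalized log2 signal of 1.09 in the control, -1.46 at BP10 and 1.14 at BP40, a difference of 2.60 between the doses. ENSMUST00000099683, on chromosome 2, had 1.73, -0.25 and 2.14 in the same order, a difference of 2.39, and a second probe of it differed by 2.66. For all 5 entries the BP10 array was low, and the control array lay close to BP40. On the whole array 11 probes held a run of 15 bases in common with these 5 probes, of which 6 were bright. These are the 5 probes shown, which were picked for their large difference, and 1 other, a second probe of ENSMUST00000099050, which differed by 2.73. Another 4 were above background but not bright, and differed by -1.62 to 0.50. Since these probes can bind the same RNA, they are to be read as 1 signal and not as 5 genes. The counts of genes higher at BP40 still hold each of the 5 entries.

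Genes of the hypoxia response and glycolysis lay above the bulk of the bright genes at BP40. Of 31 listed genes 27 were bright, their median difference was 0.63 against 0.16 for all bright genes, and 14 were higher by 1.5-fold or more and 0 lower (all bright genes: 7.94% and 2.88%). At 2-fold 5 were higher and 0 lower. In RNA from a whole culture, fewer cells of a type and less RNA per cell cannot be told apart, here and in every group below. Bnip3, a mitochondrial receptor for mitophagy and a HIF-1 target, had a log2 signal of 5.05 in the control, 3.41 at BP10 and 5.95 at BP40, a difference of 2.54 or 5.81-fold. Its second bright probe differed by 2.51 and a dimmer probe by 1.96. BP10 was thus the low array for Bnip3, and BP40 was above the control as well.

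Pdk1, the kinase that closes the entry of pyruvate into mitochondria, had 1.07 in the control, -0.62 at BP10 and 1.27 at BP40, a difference of 1.89. Aldoc, a glycolytic aldolase, had 1.57, -0.34 and 1.56 and differed by 1.90. For both genes the control and BP40 arrays lay close together and BP10 stood apart. Slc2a1, the glucose transporter GLUT1, had 4.65, 3.87 and 5.29 and differed by 1.42, and Higd1a, a hypoxia-induced protein of the respiratory chain, had 4.55, 4.16 and 5.46 and differed by 1.30. Both were highest on BP40 and lowest on BP10. Outside the list, Slc16a3, the lactate exporter MCT4, had 5.44 in the control, 3.96 at BP10 and 5.46 at BP40, a 2.83-fold difference, and its second bright probe differed by 1.53. Mgarp, a mitochondrial protein induced in hypoxia, had 0.77, -0.91 and 1.67 and differed by 2.58, but would have been below the limit of brightness without BP40. Among abundant enzymes of the list Aldoa had a difference of 0.67, and Gapdh of 0.20 with -0.02 to 0.33 on its other bright probes. Vegfa, the angiogenic growth factor, had 0.00, with 0.15 on its second probe. Gapdh and Vegfa were named after their values were seen.

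The promoter of Bnip3 is shown with each match to the core of the hypoxia response element in capitals, searched as ACGTG or GCGTG on both strands in the window from 250 bases before to 50 after the start in RefSeq. The palindrome in this window is counted once per strand.
Bnip3 promoter (GRCm38.p6, chr7:138909457-138909756, minus strand): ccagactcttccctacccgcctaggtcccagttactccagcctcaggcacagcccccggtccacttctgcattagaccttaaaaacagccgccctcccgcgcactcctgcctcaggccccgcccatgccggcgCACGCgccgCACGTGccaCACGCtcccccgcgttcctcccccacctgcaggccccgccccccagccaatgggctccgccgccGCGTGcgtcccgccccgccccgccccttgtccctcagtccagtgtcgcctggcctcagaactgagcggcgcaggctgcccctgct
It held 5 matches. At least 1 match was present in 23 of the 25 bright members of the list that had a promoter in the table (92.0%), in 64.0% of the 8711 promoters of bright genes and in 43.8% of all 32851 promoters. A match is a description of these letters and not evidence of binding.

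Interferon-stimulated genes lay as far above the median of all bright genes. Of 55 listed genes on the array 23 were bright, with a median difference of 0.64, and 12 of them were higher by 1.5-fold or more and 0 lower. At 2-fold 5 were higher and 0 lower. Isg15, a ubiquitin-like protein conjugated in the antiviral response, had 2.27 in the control, 0.99 at BP10 and 2.56 at BP40, a difference of 1.57, and a dimmer probe of it differed by 1.54. Oas1a, a sensor that activates RNase L on double-stranded RNA, had 1.16, 0.02 and 1.68 and differed by 1.66, with 1.30 on a dimmer probe. Rtp4 had 0.59, -1.02 and 0.94 and differed by 1.95, but would have been below the limit of brightness without BP40. In all 3 genes BP10 was low and the control array lay nearer to BP40.

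Bst2, the tether that holds budding virus at the cell surface, had 3.36 in the control, 2.39 at BP10 and 3.71 at BP40, a difference of 1.32. Ifi204, an interferon-induced DNA sensor family member, differed by 1.12 on its brightest probe and by 1.55 on another. Ifi204 belongs to a gene family of near copies, so its probes may read more than 1 of them. Stat2, part of the complex that switches these genes on, had 1.91, 1.11 and 2.10 and differed by 0.99. Genes of MHC class I antigen presentation, which interferons also raise, had 13 bright members with a median of 0.35, of which 4 were higher by 1.5-fold and 0 lower. Psmb8, a subunit of the immunoproteasome, differed by 1.06, and H2-K1, a class I heavy chain, by 0.92 on 1 probe and 0.64 on another.

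The promoters of Isg15 and Oas1a are shown with the letters GAAANNGAAA, the core of the interferon-stimulated response element, in capitals. Overlapping matches run into each other.
Isg15 promoter (GRCm38.p6, chr4:156200769-156201068, minus strand): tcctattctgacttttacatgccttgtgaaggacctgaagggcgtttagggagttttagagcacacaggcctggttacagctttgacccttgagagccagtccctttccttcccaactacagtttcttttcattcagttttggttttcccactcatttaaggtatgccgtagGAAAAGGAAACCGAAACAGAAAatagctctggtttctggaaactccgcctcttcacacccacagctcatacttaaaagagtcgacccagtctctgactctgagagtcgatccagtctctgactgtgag
Oas1a promoter (GRCm38.p6, chr5:120907476-120907775, minus strand): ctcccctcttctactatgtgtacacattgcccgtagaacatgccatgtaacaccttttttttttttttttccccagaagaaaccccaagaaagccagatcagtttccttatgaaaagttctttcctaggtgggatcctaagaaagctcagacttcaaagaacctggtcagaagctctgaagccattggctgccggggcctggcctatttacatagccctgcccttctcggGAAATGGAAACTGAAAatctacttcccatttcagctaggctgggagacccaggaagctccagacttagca
The Isg15 window held 3 matches and the Oas1a window 2, all on the strand of the gene. Of the 18 bright members of the list with a promoter in the table, 9 held a match, against 2.73% of the promoters of bright genes and 3.44% of all promoters.

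Metallothioneins, which bind zinc and other metals, were higher at BP40 as a pair. Mt2 had a log2 signal of 5.71 in the control, 4.46 at BP10 and 6.69 at BP40, a difference of 2.23 or 4.70-fold. Mt1 had 6.45, 5.67 and 7.37, a difference of 1.69, while a dimmer probe of it differed by 0.50. Both genes were lowest on BP10 and highest on BP40. The other 4 bright members of the metal list, which include zinc transporters and Mtf1 itself, stayed within 1.5-fold, so the list had a median of 0.29 with 2 of 6 higher and 0 lower at either threshold. The coding sequences of Mt1 and Mt2 are alike, and cross-binding of their RNAs was not tested.

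The Mt1 and Mt2 promoters lie close together on chromosome 8 and are shown with the core of the metal response element, searched as TGCGCNC or TGCACNC on both strands, in capitals.
Mt2 promoter (GRCm38.p6, chr8:94172368-94172667, plus strand): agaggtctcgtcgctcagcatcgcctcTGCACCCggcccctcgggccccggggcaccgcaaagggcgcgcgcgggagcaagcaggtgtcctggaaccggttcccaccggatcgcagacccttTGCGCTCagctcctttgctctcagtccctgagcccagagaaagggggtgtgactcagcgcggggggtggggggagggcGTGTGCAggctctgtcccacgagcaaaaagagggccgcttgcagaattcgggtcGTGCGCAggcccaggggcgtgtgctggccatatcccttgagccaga
Mt1 promoter (GRCm38.p6, chr8:94178839-94179138, plus strand): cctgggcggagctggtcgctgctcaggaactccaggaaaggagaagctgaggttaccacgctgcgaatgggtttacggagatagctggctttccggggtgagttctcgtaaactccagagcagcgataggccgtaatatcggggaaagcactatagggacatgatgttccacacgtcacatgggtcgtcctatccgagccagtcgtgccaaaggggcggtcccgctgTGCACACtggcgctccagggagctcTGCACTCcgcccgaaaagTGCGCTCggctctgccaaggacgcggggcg
The windows held 4 and 3 matches. Among bright members of the metal list in the promoter set, 3 of 4 held a match, and so did 36.1% of promoters of bright genes and 25.7% of all promoters.

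**Figure D2:**
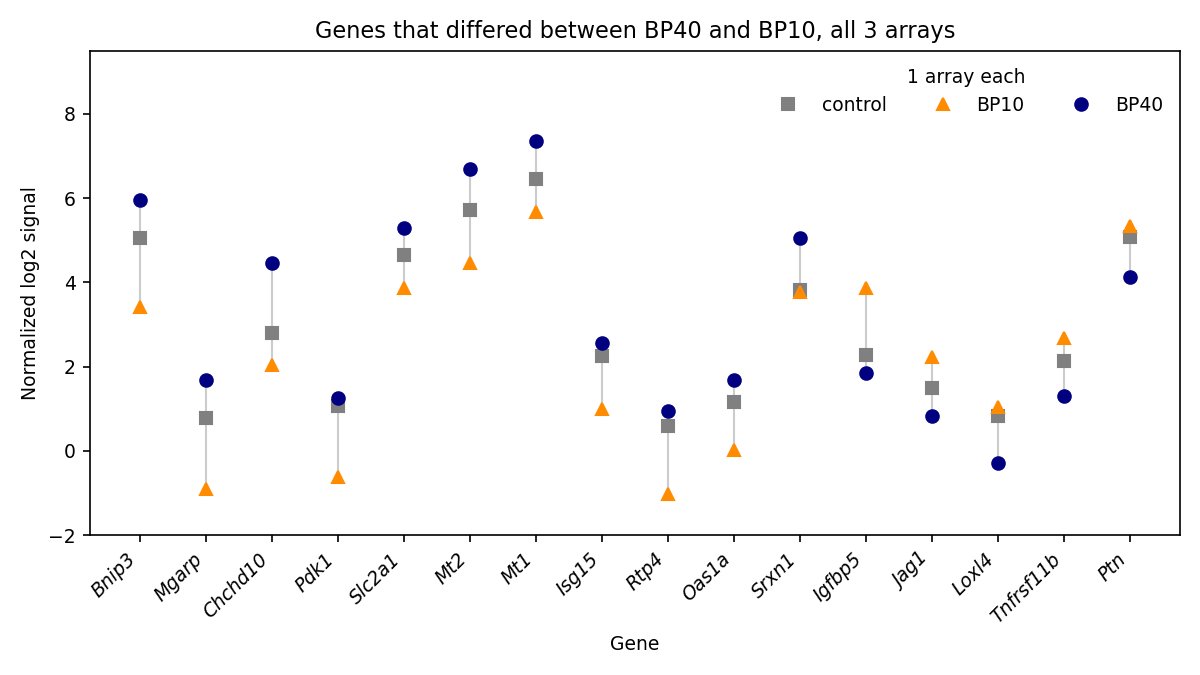
Normalized log2 signal (vertical axis, log scale relative to the 75th percentile of each array) of 16 bright genes on the control (grey square), BP10 (orange triangle) and BP40 (blue circle) arrays, 1 array each; grey lines join the lowest and highest. From Bnip3 to Oas1a the BP10 triangle is lowest, for Srxn1 the control lies beside BP10, and from Igfbp5 to Ptn the BP40 circle is lowest.

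Genes of the antioxidant response driven by NRF2 also lay above the median of all bright genes. Of 34 listed genes 31 were bright, with a median difference of 0.41, 7 higher by 1.5-fold and 1 lower. Srxn1, which repairs oxidized peroxiredoxins, had 3.82 in the control, 3.77 at BP10 and 5.06 at BP40, a difference of 1.30. Nqo1, a quinone reductase, had 0.07, 0.65 and 1.38 and differed by 0.73. Gsr, which reduces glutathione, differed by 0.78, with 0.69 on its second probe. BP40 was the highest array for all 3, while the control was close to BP10 for Srxn1, below it for Nqo1 and above it for Gsr. The member that was lower was Sqstm1, a carrier of cargo to autophagy, with 1.40, 2.54 and 1.83 and a difference of -0.71. The letters TGACNNNGC, the core of the antioxidant response element, occurred in the promoters of 10 of 26 bright members (38.5%), in 14.6% of promoters of bright genes and in 12.4% of all. The set's median relative to all bright genes was 0.25, but 0.14 once the running median along brightness was subtracted, and -0.22 over the second probes of the 7 members that had them. Glutathione S-transferases, a separate list with 14 bright members, had a median of 0.39 with 3 higher by 1.5-fold and 0 lower. Gsta4, which clears lipid aldehydes, had -0.77, 0.09 and 1.33 and differed by 1.23, so that it stood higher on BP10 than in the control and higher again on BP40. It passed the limit of brightness only through its BP40 signal, so its difference is not independent of that choice.

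All 74 listed genes of oxidative phosphorylation, the subunits of the respiratory chain and ATP synthase, were bright. Their median difference was 0.45, and 20 were higher by 1.5-fold and 1 lower. Atp5g3, a subunit of the ATP synthase ring, had 6.32 in the control, 5.74 at BP10 and 6.86 at BP40, a difference of 1.11. Ndufa5, a subunit of complex I, differed by 0.76 on each of its bright probes. Relative to all bright genes the list stood at 0.29, and between 0.23 and 0.50 over the settings tried. Genes of the cytosolic ribosome, 77 of 78 bright, had a median of 0.37 with 10 higher by 1.5-fold and 0 lower, but these are among the brightest genes on the array, and after the running median along brightness was subtracted the list lay 0.04 above the median of all bright genes. The ribosomal gene with the largest difference, Rpsa, had 1.15 on its brightest probe but -0.44 to -0.07 on its other bright probes.

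Single genes of other roles also stood high. Gm2138 had the third largest difference, with -0.31 in the control, -1.42 at BP10 and 4.22 at BP40, a difference of 5.64 on a single probe. Chchd10, a protein of mitochondrial cristae, had 2.81, 2.04 and 4.46 and differed by 2.42. Vgf, a secreted neuropeptide precursor, had -0.11, -0.25 and 1.97 and differed by 2.22. In these genes BP40 stood above both other arrays. Gdf15, a stress-induced secreted cytokine, had 1.54, 2.27 and 3.45 and differed by 1.18, Il11, a cytokine that signals through gp130, had 1.05, 0.94 and 2.04 and differed by 2.14-fold, and Baiap2l2, a membrane-shaping protein, had 2.85, 0.20 and 2.55 and differed by 2.35. Signalling genes of the JAK-STAT pathway had 29 bright members with a median of 0.26, 4 higher by 1.5-fold (13.8%, against 7.94% of all bright genes) and 1 lower (3.45%, against 2.88%), and it lay 0.10 above the median of all bright genes. Stat3 differed by 0.46, but a dimmer probe of it differed by -0.23, and Jak2 differed by 0.22. Pparg, the fat cell nuclear receptor, had -0.06 in the control, 1.40 at BP10 and 1.18 at BP40, so both BP arrays were above the control and differed from each other by -0.22. The reprogramming factors Klf4 and Myc differed by 0.28 and -0.31.

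On the lower side stood the lists of matrix genes. Of 25 collagens on the array 18 were bright, with a median difference of -0.31 and of -0.46 relative to all bright genes, 0 higher by 1.5-fold and 3 lower. Col7a1, the anchoring collagen of basement membranes, had 3.41 in the control, 3.81 at BP10 and 2.86 at BP40, a difference of -0.95. Col2a1 differed by -0.60. The lowest, Col12a1, had 4.07, 4.83 and 3.41 and a difference of -1.42, but its spot lies in a patch described further on. Col1a2 went the other way at 0.40, and Col1a1, with 7.82, 7.07 and 6.96, differed by -0.11, with a median of -1.01 over its neighbouring spots. The list's shift lay between -0.50 and -0.41 over the settings tried.

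Proteoglycans and glycoproteins of the matrix had 42 bright members, a median of -0.15, 0 higher by 1.5-fold and 4 lower. Ccn5, a growth-inhibiting matricellular protein, had 3.46 in the control, 3.57 at BP10 and 2.34 at BP40, a difference of -1.23. Nid2, which links laminin to collagen in basement membranes, had 1.67, 1.57 and 0.61 and differed by -0.96. Both were level on the control and BP10 arrays and low on BP40. Bgn, a small leucine-rich proteoglycan, had 3.74, 5.05 and 4.13 and differed by -0.93, and for this gene BP10 was the array that stood apart. Fmod, which shapes collagen fibrils, differed by -0.91. Sparc, a collagen-binding glycoprotein, differed by 0.43 on its brightest probe and 2.07 on a second one.

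Enzymes that process collagen had 22 bright members with a median of -0.10, 1 higher by 1.5-fold and 4 lower. Loxl4, a lysyl oxidase that crosslinks collagen, had 0.84 in the control, 1.03 at BP10 and -0.28 at BP40, a difference of -1.31, and -1.29 on its second probe. Loxl3, of the same family, had 3.27, 3.28 and 2.11 and differed by -1.17. Pcolce2, an enhancer of procollagen cleavage, had 2.32, 2.76 and 1.43 and differed by -1.33. In these 3 genes BP40 was below both other arrays. The member that was higher, P4ha2, a prolyl hydroxylase that also belongs to the hypoxia list, had 4.65, 4.16 and 5.07 and differed by 0.91. Matrix proteases and their inhibitors had 19 bright members with a median of -0.17, 1 higher and 4 lower, the lowest being Adamts1 at -0.76 and Adamts5 at -0.75, while a dimmer probe of Adamts5 differed by 0.71. Adamts5 would have been below the limit of brightness without BP10. Relative to all bright genes this list stood at -0.33, and at -0.02 on the second probes of the 3 members that had them. Contractile genes had a median of -0.02 over 30 bright members, 0 higher and 1 lower, a share of 3.33% against 2.88% of all bright genes. That 1 gene was Tpm1, a tropomyosin, whose brightest probe differed by -1.04 and whose other bright probes ranged from -1.17 to 0.15.

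Growth factors and their binding proteins had 24 bright members with a median of -0.07, 1 higher by 1.5-fold and 4 lower. Igfbp5, a secreted binding protein of insulin-like growth factors, had 2.27 in the control, 3.86 at BP10 and 1.84 at BP40, a difference of -2.02 or 4.06-fold. BP10 was the high array for Igfbp5. Ptn, pleiotrophin, had 5.07, 5.33 and 4.13 and differed by -1.21, whereas its second bright probe differed by -0.35. Igf2 differed by -0.63. Imprinted genes, expressed from 1 parental copy, had 16 bright members with a median of -0.25, 0 higher by 1.5-fold and 5 lower, among them Peg3 at -0.85, Ndn at -0.76 and Cdkn1c at -0.67. H19, with 7.73, 7.41 and 7.87, differed by 0.46, and its other bright probes by 0.23 to 0.42.

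Among single genes, Jag1, a Notch ligand, had 1.49 in the control, 2.24 at BP10 and 0.84 at BP40, a difference of -1.40. Tnfrsf11b, the decoy receptor osteoprotegerin, had 2.13, 2.68 and 1.31 and differed by -1.37, and Serpina3g, a protease inhibitor, had 2.65, 1.95 and 0.14 and differed by -1.81. BP40 was the lowest array for each. Chemokines and other inflammatory genes had 15 bright members with a median of -0.29, 1 higher by 1.5-fold and 2 lower: Ccl7 differed by -0.79 and Ccl2 by -0.60, while Cxcl5 had 3.14, 0.62 and 1.87 and a difference of 2.37-fold upwards.

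Sex-linked genes moved between the arrays too. Xist, the RNA that silences 1 X chromosome in female cells, had 0.71 in the control, 1.61 at BP10 and 0.34 at BP40, a difference of -1.27, and its other 3 bright probes differed by -1.21 to -1.09. The Y-linked genes Eif2s3y, with 1.88, 0.80 and 1.72, and Ddx3y, with 1.71, 1.09 and 1.74, differed by 0.93 and 0.65. Xist was thus highest on BP10, where both Y-linked genes were lowest. The part of this in the other differences between the arrays was not tested.

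**Figure D3:**
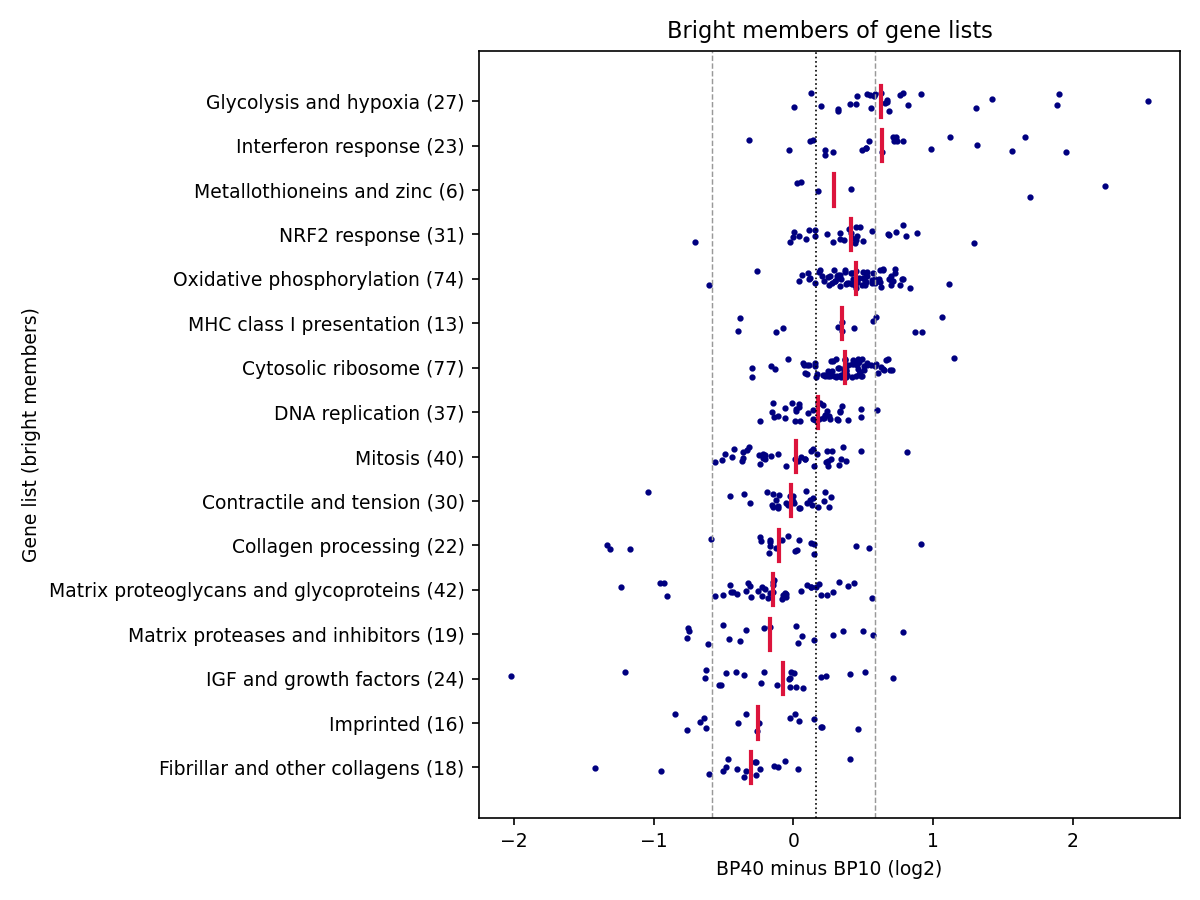
BP40 minus BP10 (log2, horizontal axis) for each bright member (blue points) of 16 gene lists, with the number of bright members in brackets, the list median as a red bar, the median of all bright genes (0.16) as a dotted line and 1.5-fold as dashed lines. The medians run from 0.64 for interferon response and 0.63 for glycolysis and hypoxia to -0.31 for collagens; scaling on the spike-in probes would move all points to the left together.

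Genes of the unfolded protein response and its factor ATF4 had a median of -0.01 over 30 bright members, with 2 higher by 1.5-fold and 1 lower. Its 1 member higher by 2-fold was Ddit4, an inhibitor of mTORC1, with 5.53, 4.59 and 5.84 and a difference of 1.26. Mitosis genes, 40 of 44 bright, had a median of 0.02 with 1 higher by 1.5-fold and 0 lower. Relative to all bright genes they stood at -0.14, and between -0.22 and -0.09 over the settings tried. DNA replication genes, 37 of 43 bright, sat near the middle, with a median of 0.17, 1 higher and 0 lower. Cholesterol synthesis genes had a median of 0.05 over 23 bright members, heat shock genes 0.19 over 22, p53 targets 0.23 over 22 and fatty acid oxidation genes 0.17 over 18. In each of these lists at most 2 members were higher by 1.5-fold.

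The control array lay more often near BP40 for the higher genes and more often near BP10 for the lower ones. Of the 130 genes higher at BP40 by 2-fold, the control was nearer to BP40 in 93 and to BP10 in 37. BP10 differed from the control by 2-fold or more in 67 of them, and BP40 in 18. How many of all bright genes do so was not counted. Genes picked for a 2-fold difference between the doses are bound to lie away from the control on at least 1 array. The median difference of the 130 genes from the control was -1.03 for BP10 and 0.35 for BP40. Of the 54 lower genes, the control was nearer to BP10 in 37 and to BP40 in 17, and the medians were 0.28 for BP10 and -0.93 for BP40. Over all 10875 bright genes the control was nearer to BP40 in 5646 and to BP10 in 5229, with medians of -0.11 for BP10 and 0.05 for BP40. These comparisons share the control array, which was scanned apart from the other 2, so scan session and BP cannot be told apart in them.

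Second probes gave the closest thing to a check of single genes. They read the same RNA on the same arrays, so they check the probes and say nothing of the spread between cultures. Of the bright genes, 1794 had 2 or more bright probes, and the SD between the brightest and the second had a median of 0.15. The second probe had the same sign in 67.4% of these genes, in 59.0% of the 1125 genes whose brightest probe lay within 1.25-fold, in 87.9% of the 165 between 1.5-fold and 2-fold, and in 17 of 21 at 2-fold or more. By direction, these were 10 of 14 higher (71.4%) and 7 of 7 lower. Of these 21 genes, the second probe passed 1.5-fold the same way in 10 and 2-fold in 8. Since 68.9% of all bright genes lay above 0, many probes share a sign without a shared difference, and the share for the smallest differences is no sign of agreement. The share for genes higher by 2-fold is also near 68.9%. All bright probes differed by at least 1.5-fold the same way in 44 genes that were higher and 12 that were lower, and by at least 2-fold in 5 and 3. The 5 higher genes include ENSMUST00000099050 and ENSMUST00000099683, which read the repeat shown above and are not separate signals. Both entries are also among the 14 higher genes and the 8 whose second probe passed 2-fold. Beside the genes given above, Tubb2b, a tubulin, had differences of 0.84 and 1.03, Gatd3a 0.90 and 0.99, and Ola1, an ATPase, 0.87 and 0.88. On the lower side an unnamed transcribed region of chromosome 7 had 5 bright probes between -1.42 and -1.26, Ccdc80, a secreted matrix protein, had -0.71 and -0.69, and Crispld2 -0.79 and -0.66.

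Probes of some genes disagreed. Pip5k1a, a phosphoinositide kinase, differed by 1.83 on its brightest probe and by -0.34 on another. Crtc3, a coactivator of CREB, differed by 0.40 and -4.47. Khsrp, an RNA-binding protein, had 4.92 in the control, 4.19 at BP10 and 2.68 at BP40, a difference of -1.51, but a dimmer probe of it differed by -0.28. Probes of a gene can lie in different exons or ends of its transcripts, and which transcripts each reads was not tested. Neighbouring spots were examined only for the brightest probe of a gene, so not for the Crtc3 probe at -4.47.

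**Figure D4:**
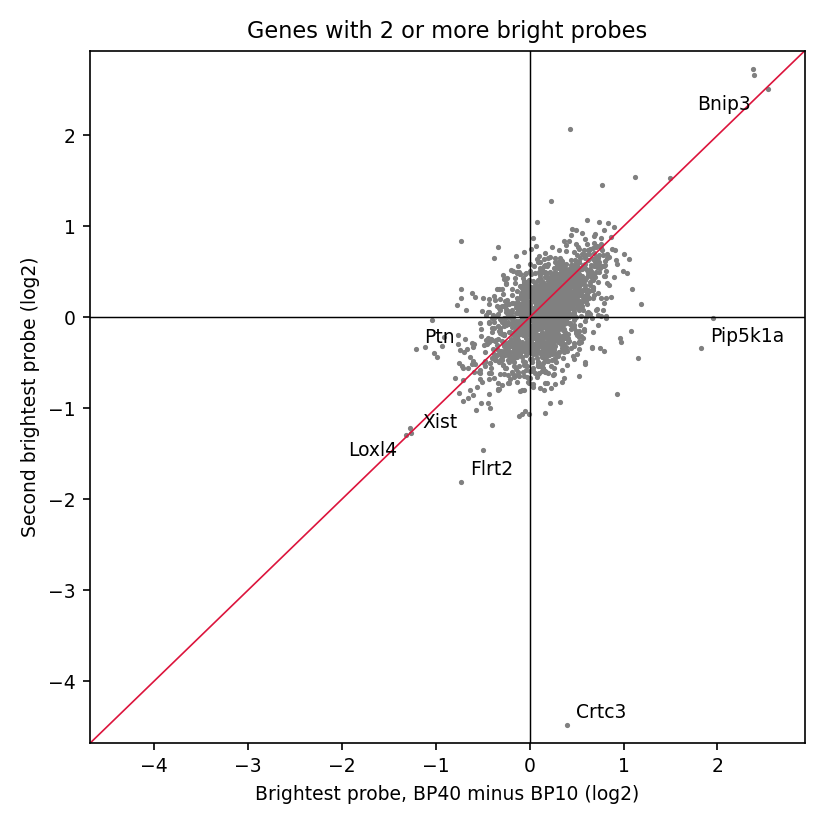
BP40 minus BP10 (log2) of the second brightest probe (vertical axis) against that of the brightest probe (horizontal axis) for 1794 genes with 2 or more bright probes; the red line marks equal values. Bnip3 (2.54 and 2.51) and Loxl4 (-1.31 and -1.29) lie on the line, and Pip5k1a (1.83 and -0.34) and Crtc3 (0.40 and -4.47) lie far from it.

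The very largest differences were shared by neighbouring spots. Each spot on the array typically has 6 neighbours that hold other probes, and the median difference of these neighbours was at least 2-fold in the same direction for 129 bright genes (1.19%). They include 5 of the 130 higher genes and 5 of the 54 lower ones. An unnamed region of chromosome 16 differed by 7.75 with a neighbour median of 7.10, and 1 of chromosome 9 by 6.83 with 4.17. Syn1, a synaptic vesicle protein, differed by -2.75 with a neighbour median of -3.79, Plekhf2 by -1.43 with -3.53, and Col12a1 by -1.42 with -3.18. The neighbours of Gm2138 had a median of 0.34, those of Bnip3 0.32 and those of Igfbp5 -0.02. Without the 129 genes, a setting chosen after these values were seen, 125 genes were higher and 49 lower by 2-fold.

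**Figure D5:**
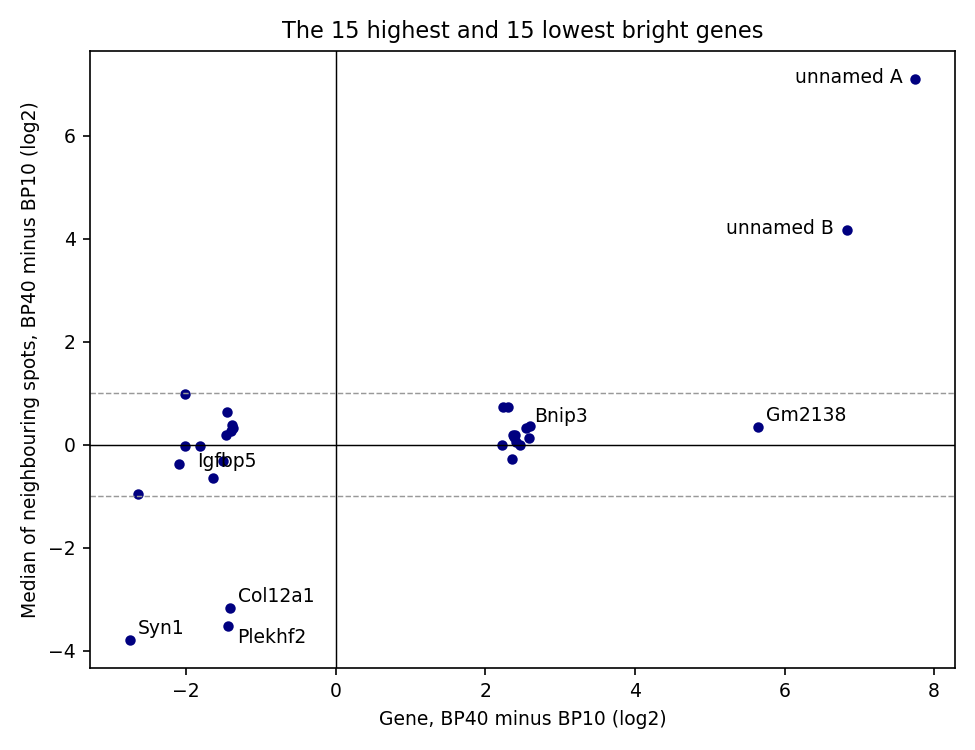
Median BP40 minus BP10 (log2) of the spots next to a gene's spot (vertical axis) against the gene's own difference (horizontal axis) for the 15 highest and 15 lowest bright genes; unnamed A and B are the regions of chromosomes 16 and 9, and dashed lines mark 2-fold. Those regions, Syn1, Plekhf2 and Col12a1 lie beyond the dashed lines in the direction of their neighbours, and the other genes, Bnip3 and Igfbp5 among them, lie between the lines.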

How the data were processed

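RNA of 1 control, 1 BP10 and 1 BP40 culture went onto 1 Agilent mouse array each. The authors deposited intensity values from Feature Extraction 10.5.1.1, background-subtracted and, where its fit acted, detrended within each array, and left each array on its own scale. Their series table repeats these values within a relative tolerance of 0.0001. Here, log2 of the processed signal minus the 75th percentile over gene spots was used, spots marked as outliers were left out, and spots of a probe were averaged. A gene was represented by its brightest bright probe. Names came from RefSeq accessions (75.5% of bright genes) and otherwise from the array file. The fold limit was 2-fold, with 1.5-fold for lists and 3-fold as an alternative. Precision is limited by the single array of each condition.

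The genes and the 45 lists, written from general knowledge, were chosen with earlier results of these data known. Named genes were the 15 highest and 15 lowest, the 10 highest and 10 lowest whose bright probes all differed by 1.5-fold the same way, up to 5 members furthest from 0 at 1.5-fold and the 2 brightest members of each list, the 5 whose probes disagreed most, the 5 brightest, and genes that the study's text names. Col1a1, Col1a2 and neighbours' values were added after they were seen. Promoters are from RefSeq (GRCm38.p6), and probe positions are in mm9. The steps were tested on simulated data. Alternatives used quantile normalization, spike-in scaling, normexp (limma 3.58.1, offset 50), other brightness limits and probe choices. Computations used Python 3.11.15, numpy 2.4.6 and pandas 2.3.3.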

Additional observations from a re-analysis of the deposited data

Results flagged for a closer look

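Among the 242 named genes, 11 moved in opposite directions from the control on the BP10 and BP40 arrays, by at least 1.5-fold each way. Many of the named genes were picked for a large difference between the doses, which this pattern requires. It was not counted over all bright genes, so how common it is among them is not known. With 1 array per condition, and a control array scanned apart, the difference between the doses' effects was not tested. Relative to the control, Gm2138 had -1.11 on BP10 and 4.53 on BP40, so the doses differed by 5.64. Of the hypoxia-related genes, Mgarp had -1.68 and 0.90 (a difference of 2.58), Bnip3 had -1.64 and 0.90 (2.54) and Slc2a1 had -0.78 and 0.64 (1.42). Chchd10 had -0.76 and 1.65 (2.42). The metallothioneins Mt2 and Mt1 had -1.25 and 0.98 (2.23) and -0.77 and 0.92 (1.69). Pip5k1a had -1.06 and 0.77 (1.83), although its second bright probe differed by -0.34. In the other direction, Piezo2, a mechanically gated channel, had 0.78 on BP10 and -0.67 on BP40 (-1.45), and Jag1 had 0.75 and -0.65 (-1.40). Col12a1 had 0.76 and -0.65 (-1.42), but its spot lies in a patch, with a median of -3.18 over its neighbouring spots.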

How the results depend on the processing

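No paired analysis was possible because only 1 array was made of each culture. A value was taken as kept within 0.1 on the log2 scale, 5 percentage points for probe agreement, or 1.5 times for a count. The counts of genes higher and lower (130 and 54) became 84 and 29 at brightness above 1, and 21 and 2568 with spike-in scaling. A limit of 1.5-fold gave 864 and 313, and one of 3-fold gave 33 and 7. On the second probes of 1794 genes they were 12 and 14, against 14 and 7 on the brightest probes of these genes, and only 5 and 3 of those called on second probes were among the 130 and 54. The 5 include ENSMUST00000099050 and ENSMUST00000099683, which read the same repeat. The count of lower genes became 83 with centring on the bright median and 85 at brightness above -1. The 54 lower genes were all kept under quantile normalization (76 lower), where 96 of the 130 higher genes were kept. The median difference (0.16) became 0.026 with quantile normalization, 0.035 with bright-median centring and 0.012 with the brightness trend subtracted, and it reversed to -0.76 with spike-in scaling, which also put probe agreement at 98.5% because it moved most values below 0. Relative to all bright genes, glycolysis and hypoxia moved from 0.47 to 0.36 with quantile normalization, interferon genes from 0.48 to 0.35 at brightness above 1 and to 0.35 on second probes, and oxidative phosphorylation from 0.29 to 0.50 on second probes. The NRF2 list reversed from 0.25 to -0.22 on the second probes of 7 genes. Matrix proteases went from -0.33 to -0.02 on the second probes of 3 genes. Of 506 list values over 37 lists, 468 were kept. The causes were not tested. Genes outside the limit of brightness were not described, and the scatter of dim probes limits the genes of brightness 0 to 1, of which 3.17% passed 2-fold.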
